A study of Mus musculus with 12 samples.

Results

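The choroid plexus genes followed here are Ttr, Enpp2, Igf2, Igfbp2, Kl, Clic6 and Folr1, 7 genes picked by symbol because earlier values of these data showed transcripts of the choroid plexus in libraries of the hippocampus. The count table held 6 of them among its 32546 genes, and Igf2 was not analysed here. Photo-isolation chemistry (PIC) was used to collect the transcriptome of CA1, CA3 and DG in sections of male ICR mice aged 8 weeks. In PIC, light removes a caging group from the RT primers inside the irradiated region, so that cDNA from that region enters a CEL-seq2 library. Each region was taken in 4 histological conditions: unfixed frozen sections (fresh-frozen) opened with 0.1 N HCl over 5 min, the same kind of section heated in TE to 70 °C over 1 h, frozen sections of tissue fixed in 4% PFA with that TE step, and paraffin sections of PFA-fixed tissue with it. The description of the series names CA2 where the sample titles name CA3, and CA3 is used here.

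The choroid plexus is an epithelium on a vascular core that hangs in the brain ventricles and secretes the cerebrospinal fluid. Its cells make large amounts of transthyretin, the product of Ttr, which carries thyroid hormone and retinol, and they secrete other carrier and growth factor-binding proteins. In the lateral ventricle the choroid plexus lies beside the fimbria and CA3, and it is not part of CA1, CA3 or DG. Some of the genes are also expressed in the hippocampus itself, as said below for Enpp2 and Kl, so that their counts and the sum over the genes are no measure of choroid plexus RNA alone. Whether such RNA came from tissue inside the irradiated area or from neighbouring tissue was not measured.

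Each of the 12 libraries pooled 4 biological replicates, which were told apart by the barcode of the caged primer. The same 4 barcodes were used in every library, and they are shown because the largest differences below lie between the replicates of 1 library. Which replicate carried which barcode is not given in the sources used here.
barcode 1: ctgtac
barcode 2: tcacca
barcode 3: tccttc
barcode 4: tgtctg
Any pair of these sequences of 6 bases differed at 4 or more bases. Within a condition, library and region cannot be told apart.

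Total UMIs per replicate ranged from 127253 to 933756 in HCl-treated fresh-frozen sections, from 294445 to 1111804 in TE-treated fresh-frozen sections, from 52800 to 307145 in PFA-fixed frozen sections and from 35932 to 223055 in paraffin sections. Summed markers of CA1, CA3 and DG neurons were each highest in their own region, with no overlap between replicates of different regions in any of the 4 conditions. No 2 of the 48 replicates held identical counts. Levels are given as CPM, the UMIs of a gene scaled to the total of its replicate, with n = 4 per library unless stated. In bulk RNA, fewer cells of a type and less RNA per cell cannot be told apart.

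Ttr (chromosome 18, 20665280 to 20674321, GRCm38) was detected in 44 of 48 replicates, at levels between 0 and 8888 CPM with a median of 235 CPM. In HCl-treated fresh-frozen sections, Ttr was at 3125, 189, 207 and 416 CPM in replicates 1 to 4 of CA1. In CA3 the values were 369.9, 261, 312 and 43.8 CPM, and in DG they were 213, 2300.1, 44.4 and 251 CPM. A single replicate of CA1 and a single replicate of DG thus stood 15.1 and 10.8 times above the median of the other three in their library, and the 3 regions overlapped. With the SD, Ttr was at 984 ± 1431 CPM in CA1, 247 ± 142 CPM in CA3 and 702 ± 1069 CPM in DG.

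After TE, Ttr in fresh-frozen sections was at 19.5, 84.4, 56.7 and 340.0 CPM in CA1. In CA3 it was at 715, 1070.3, 155 and 375 CPM. In DG it was at 2549, 2138, 2620.5 and 47.5 CPM. Here 3 of 4 DG replicates were high and the fourth lay below 3 of the 4 CA1 replicates, which makes the 2 regions overlap although their means were 125 ± 146 and 1839 ± 1213 CPM. The UMIs behind these 4 DG values were 1254, 1255, 1562 and 14.

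PFA-fixed frozen sections held the lowest counts of Ttr. In CA1 the 4 replicates had 0, 0, 2 and 1 UMIs, which is 3 UMIs in the library. In DG they had 3, 4, 5 and 3 UMIs, at 13.0 to 27.5 CPM. In CA3 they had 194, 27, 48 and 21 UMIs, at 1976, 191, 376 and 398 CPM. All 4 CA3 replicates were above all replicates of the other two regions, and replicate 1 stood apart from the other three. From pooled UMIs, Ttr in CA3 was 96.9 times its level in CA1, with an exact 95% interval of 32.8 to 473 that covers counting error only.

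In paraffin sections Ttr was at 427, 0, 0 and 334 CPM in CA1, from 20, 0, 0 and 12 UMIs. In CA3 it was at 869, 1148, 272 and 576 CPM. In DG it was at 8888, 53.3, 31.4 and 218 CPM, so that replicate 1, with 1311 of the 1338 Ttr UMIs of its library, held the highest Ttr level of all 48 replicates. The exact 95% interval (Clopper-Pearson) of that share was 97.1% to 98.7%. Over all libraries, the highest replicate held more Ttr UMIs than the other three together in 7 of 12, and among the 10 libraries without a 0 the highest replicate exceeded the lowest by 2.11 to 283 times.

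**Figure D1:**
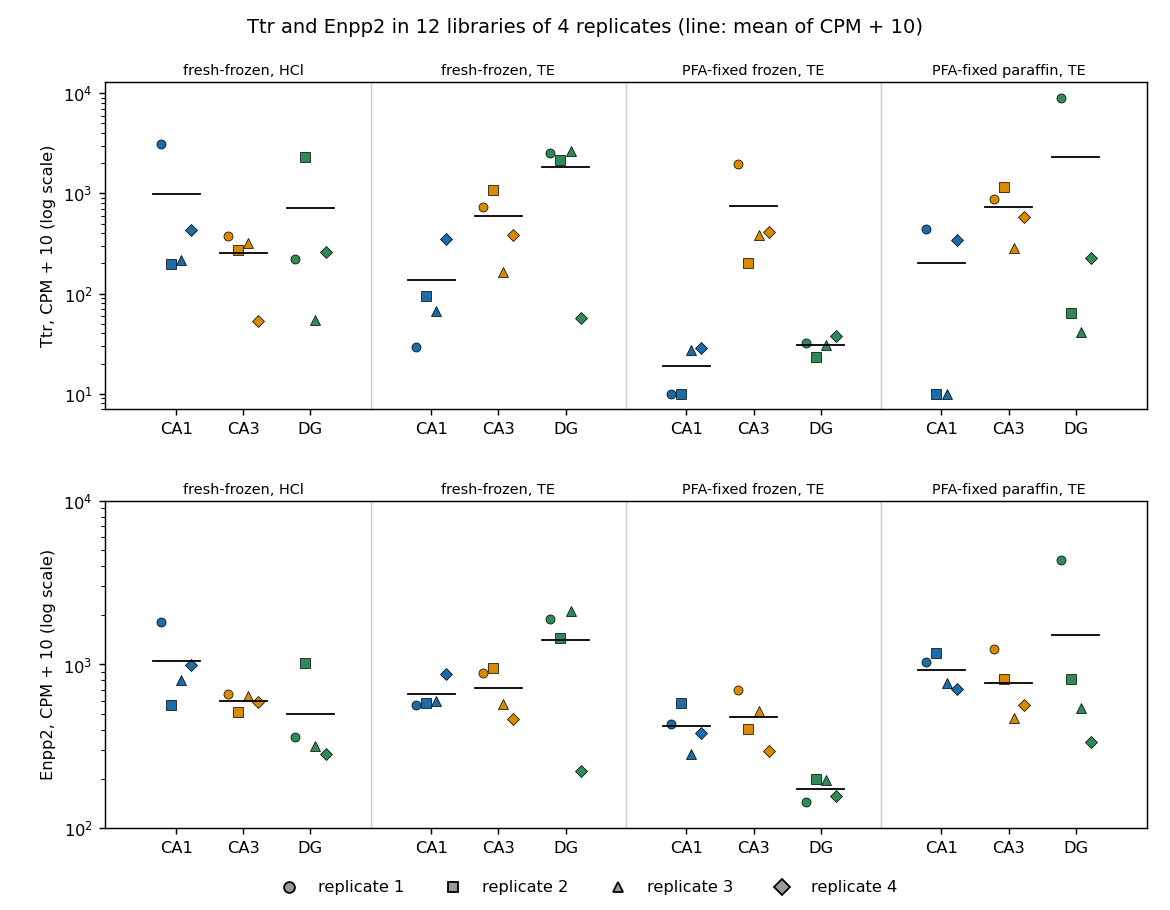
Ttr (top) and Enpp2 (bottom) in CPM + 10 on a log axis for each of the 48 replicates, by region and condition. Marker shape gives the replicate number and the line gives the mean of 4 replicates. Ttr sits far above its library in replicate 1 of HCl-treated CA1 (3125 CPM), replicate 2 of HCl-treated DG (2300.1 CPM) and replicate 1 of paraffin DG (8888 CPM), and Enpp2 is the highest of its library in the same 3 replicates, with no replicate under 134 CPM.

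Enpp2 (chromosome 15, 54838901 to 54952892) encodes autotaxin, the secreted enzyme that makes lysophosphatidic acid, and it is known from oligodendrocytes as well as from the choroid plexus. It was detected in all 48 replicates, at 134 to 4339 CPM. In HCl-treated fresh-frozen sections it was at 1819, 554, 791 and 982 CPM in CA1. In CA3 it was at 652, 504, 631 and 578 CPM, and in DG at 352, 1014, 308 and 272 CPM. The replicates that were highest for Ttr in CA1 and DG were highest for Enpp2 too, by 2.30 and 3.29 times the median of the other three.

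With TE, Enpp2 in fresh-frozen sections was at 558, 574, 590.2 and 861 CPM in CA1. It was at 883, 945, 566 and 451 CPM in CA3, and at 1883, 1438, 2100.4 and 214 CPM in DG. DG replicate 4 was the lowest of the 12 replicates and the other DG replicates were the 3 highest. In PFA-fixed frozen sections Enpp2 was at 420.1, 575, 273 and 369 CPM in CA1, at 693, 395, 509 and 284 CPM in CA3 and at 134, 189, 186 and 147 CPM in DG, where no replicate reached the lowest of CA1 or CA3. In paraffin sections it was at 1024, 1169.9, 763 and 696 CPM in CA1, at 1224, 806, 460.1 and 551 CPM in CA3 and at 4339, 809, 529 and 327 CPM in DG. Replicate 1 of paraffin DG was thus 8.20 times the median of the other three for Enpp2 and 167 times for Ttr.

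The 10 oligodendrocyte markers, among them Mbp, which encodes a protein of myelin, summed to 3744 to 6086 CPM in HCl-treated DG and to 8193 to 20911 CPM in HCl-treated CA1 and CA3. After TE they summed to 2946 to 3934 CPM in DG and 6382 to 11980.4 CPM in CA1 and CA3. All 10 were higher in CA1 than in DG in both (adjusted p under 0.05, with 8.61% and 5.15% of all tested genes called higher in CA1 after HCl and TE). In paraffin DG the sum was highest in replicate 1, at 19314 CPM against 6442 to 13746 CPM in the other three, and the part of these markers in the Enpp2 values was not tested. In TE-treated DG, the order of Enpp2 over the replicates was that of Ttr (2620.5, 2549, 2138 and 47.5 CPM), whereas the oligodendrocyte sum of replicate 4, 3036 CPM, lay between those of replicates 2 and 3. Over all 48 replicates, deviations of Enpp2 from its library mean had a Pearson r of 0.69 (Spearman rho 0.58) with those of Ttr and of 0.57 (rho 0.63) with those of the oligodendrocyte sum. Without the 2 replicates whose Enpp2 deviation lay farthest from the median, r was 0.53 and 0.56. In the 24 fresh-frozen replicates r was 0.87 with Ttr and 0.28 with the oligodendrocyte sum. These are descriptions over replicates that share libraries.

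Kl (chromosome 5, 150952607 to 150993817) encodes klotho, a co-receptor for fibroblast growth factor 23 that is also known from hippocampal neurons. It had 268 UMIs in all and was detected in 36 of 48 replicates. In HCl-treated fresh-frozen sections it was at 79.3, 29.5, 21.9 and 70.7 CPM in CA1. In CA3 it was at 5.36, 7.50, 7.41 and 4.10 CPM, and in DG at 5.68, 21.7, 7.62 and 12.6 CPM. Every CA1 replicate was above every replicate of the other regions, and CA1 replicate 4 was near replicate 1 for Kl (70.7 and 79.3 CPM) but not for Ttr (416 and 3125 CPM). After TE, Kl was at 12.1 to 16.1 CPM in CA1, 3.22 to 11.7 CPM in CA3 and 10.2 to 20.4 CPM in DG, with CA1 and CA3 not overlapping. In each PFA-fixed library Kl rested on 1 to 7 UMIs.

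Igfbp2 (chromosome 1, 72824503 to 72852474), which encodes a carrier protein of insulin-like growth factors, had 198 UMIs in 39 of 48 replicates. After TE it was at 2.30, 1.51, 0 and 5.40 CPM in CA1. It was at 16.2, 5.40, 1.07 and 17.6 CPM in CA3 and at 18.3, 18.7, 26.8 and 13.6 CPM in DG. All DG replicates were above all CA1 replicates, and DG replicate 4, low for Ttr and Enpp2, was at 13.6 CPM. In HCl-treated sections the regions overlapped, at 7.86 to 16.4 CPM in CA1, 8.64 to 16.4 CPM in CA3 and 0 to 12.4 CPM in DG. PFA-fixed libraries held 1 to 10 UMIs each, and 5 of the 8 in PFA-fixed frozen CA3 and 7 of the 10 in paraffin DG were in the replicate that was highest for Ttr. In PFA-fixed frozen DG, however, 6 of the 10 were in replicate 2, the lowest for Ttr. In PFA-fixed frozen CA1 3 of the 5 were in replicate 2, which had 0 Ttr UMIs. Over the 12 libraries, the replicate highest for Igfbp2 was also the highest for Ttr in 6.

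Clic6 (chromosome 16, 92485736 to 92541243), a chloride intracellular channel gene, had 81 UMIs in 17 of 48 replicates. Its UMIs in replicates 1 to 4 were 22, 0, 1 and 0 in HCl-treated CA1, 5, 2, 0 and 1 in CA3 and 1, 5, 1 and 0 in DG. In TE-treated fresh-frozen sections they were 0 in all 4 CA1 replicates, 3, 7, 1 and 0 in CA3 and 6, 3, 10 and 0 in DG. In paraffin DG they were 11, 0, 0 and 0. In the 8 libraries that held a Clic6 UMI, the replicate with the most Clic6 was in each the replicate with the most Ttr. In PFA-fixed frozen CA3 and in paraffin CA3 this rested on 1 Clic6 UMI each. The 0 in TE-treated CA1, of 2645618 UMIs, allows up to 1.13 CPM. With a floor of 3 counts set for the CA1 library, the pooled DG level was 8.51-fold higher. This ratio takes the DG UMIs as exact, and DG replicate 4 had 0.

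Folr1 (chromosome 7, 101858331 to 101870788), the folate receptor through which the choroid plexus passes folate into the cerebrospinal fluid, had 24 UMIs in 11 replicates. HCl-treated CA1 had 6, 2, 2 and 0 of them, and HCl-treated DG had 0, 5, 0 and 0. The remaining libraries held at most 3 each. In paraffin sections none was seen in 1064285 UMIs, which allows up to 2.82 CPM. At this depth Folr1 could not be compared between most groups.

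**Figure D2:**
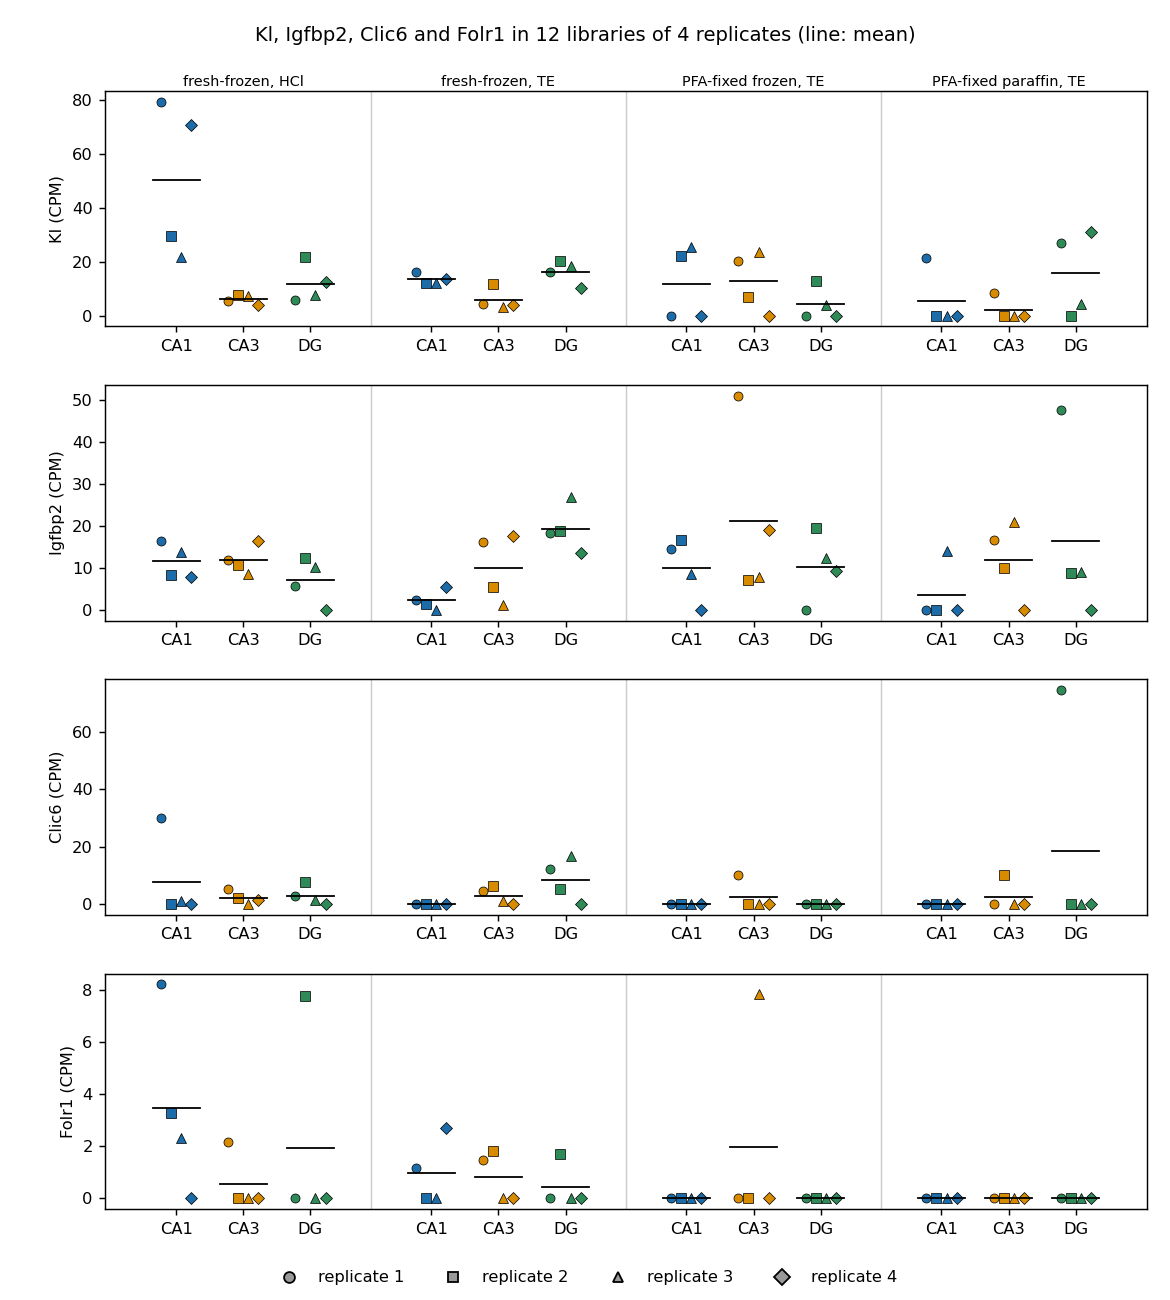
Kl, Igfbp2, Clic6 and Folr1 in CPM for each of the 48 replicates, by region and condition, with the mean of 4 replicates as a line and a separate scale for each gene. Kl is high in all 4 replicates of HCl-treated CA1 (21.9 to 79.3 CPM), Igfbp2 is low in TE-treated CA1 (0 to 5.40 CPM), and Clic6 and Folr1 lie at 0 in most replicates.

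Summed over the 6 measured genes, the level was 2094 ± 2009.8 CPM in CA1, 859 ± 179 CPM in CA3 and 1213 ± 1437 CPM in DG of HCl-treated fresh-frozen sections. It was 788 ± 292, 1310.0 ± 629 and 3292 ± 2064 CPM in the same regions after TE. PFA-fixed frozen sections had 439.9 ± 124, 1244 ± 1013 and 199 ± 35.9 CPM, and paraffin sections 1112 ± 290.1, 1493 ± 659 and 3849 ± 6352 CPM. The SD exceeded the mean in HCl-treated DG and paraffin DG. Without replicate 1, the paraffin DG sum was 674 CPM. The sum was 496 CPM in HCl-treated DG without replicate 2, 1099.5 CPM in HCl-treated CA1 without replicate 1 and 741 CPM in PFA-fixed frozen CA3 without replicate 1. Ttr took between 3 of 200 UMIs (95% interval 0.310% to 4.32%, PFA-fixed frozen CA1) and 59.8% (57.8% to 61.9%, paraffin DG) of the UMIs of the 6 genes in its library, and Enpp2 took between 38.9% and 92.5%. Over all libraries Kl, Igfbp2, Clic6 and Folr1 made up 0.938%, 0.693%, 0.284% and 0.0840% of these UMIs. UMIs count 3' ends, and levels of different genes were not compared further.

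In the fit across all genes, the log2 fold change of Ttr between CA1 and DG was 0.50 ± 0.59 (SE) in HCl-treated fresh-frozen sections, -4.05 ± 0.55 after TE, -1.37 ± 0.89 in PFA-fixed frozen sections and -3.91 ± 0.31 in paraffin sections. Between CA3 and DG it was -1.52 ± 0.63, -1.63 ± 0.49, 5.23 ± 0.29 and -1.63 ± 0.52 in the same order. Between CA1 and CA3 it was 1.98 ± 0.54, -2.39 ± 0.49, -6.50 ± 0.42 and -2.16 ± 0.34. These are descriptions, since the gene was chosen with such values known. The SE is the size of the log2 fold change over the square root of the F statistic of the fit. It is not the SD between replicates, and a small SE does not mean that replicates were alike. Ttr in paraffin DG ran from 31.4 to 8888 CPM, although the SE against CA1 was 0.31. Leaving out replicate 1 of paraffin DG turned the CA1 to DG value to 1.14 and the CA3 to DG value to 3.32. Leaving out replicate 2 of HCl-treated DG turned the CA3 to DG value there to 0.74, and leaving out replicate 1 of HCl-treated CA1 moved the CA1 to CA3 value to -0.064. In TE-treated fresh-frozen sections the CA1 to DG value stayed between -5.12 and -3.61 when any 1 replicate was left out, and in PFA-fixed frozen sections the CA3 to DG value stayed between 3.93 and 5.58.

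For Enpp2 the log2 fold change between CA1 and DG was 1.07 ± 0.28 in HCl-treated and -1.11 ± 0.28 in TE-treated fresh-frozen sections, 1.26 ± 0.22 in PFA-fixed frozen sections and -0.80 ± 0.24 in paraffin sections. For Kl it was 1.89 ± 0.42 and -0.30 ± 0.37 in the fresh-frozen conditions. For Igfbp2 it was 0.54 ± 0.51 and -3.23 ± 0.57. The CA1 and DG replicates of Enpp2 overlapped in both fresh-frozen conditions and in paraffin sections, and did not overlap in PFA-fixed frozen sections. Whether these values differ between conditions was not tested.

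Between conditions, with region as a covariate and 12 replicates a side, the log2 fold change of Ttr was -0.24 ± 0.57 for HCl against TE in fresh-frozen sections. It was -2.19 ± 0.46 for PFA-fixed frozen against fresh-frozen sections with TE and 2.67 ± 0.31 for paraffin against PFA-fixed frozen sections. Without replicate 1 of PFA-fixed frozen CA3 these 2 values were -3.36 and 3.64, and without replicate 1 of paraffin DG the latter was 0.74. The mean in CA3 did not follow them, at 579 ± 400.3 CPM in fresh-frozen sections with TE, 735 ± 832 CPM in PFA-fixed frozen and 716 ± 377 CPM in paraffin sections. For Enpp2 the same 3 values were -0.50 ± 0.24, -1.45 ± 0.20 and 1.59 ± 0.17, and for Igfbp2 they were 0.15 ± 0.34, 0.35 ± 0.43 and -0.16 ± 0.53. The median over all genes was 0.10, -0.39 and 0.05. The conditions overlapped for every measured member.

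A list of 25 other genes of the choroid plexus epithelium, chosen from textbook knowledge with earlier results of these data known, was followed next. In HCl-treated CA1 its summed level was 465 CPM in replicate 1 and 69.0 to 102 CPM in the other three, with a UMI for 22 of 25 genes in replicate 1 and for 9 to 13 in the others. In HCl-treated DG it was 338 CPM in replicate 2 and 176 to 219 CPM in the others. In paraffin DG it was 814 CPM in replicate 1, with 19 of the genes detected, and 31.1 to 196 CPM in the others. In TE-treated DG replicates 1 to 3 had 455, 296 and 429 CPM and replicate 4 had 132 CPM. In these 4 libraries the list was thus high in the replicates in which Ttr was high. In 7 of 12 libraries the replicate with the most Ttr also had the highest sum of this list, and it was the highest for Enpp2 in 8 of 12. It had the highest oligodendrocyte sum in 4 of 12, and the highest sum of the fibroblast markers below in 4 of 12. In paraffin CA3, replicate 2 had the most Ttr (1148 CPM) but 60.4 CPM of the list, against 124 CPM in replicate 1.

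Lists of other cells and tissues in and around the hippocampus were summed in the same replicates, and each is given for some of these libraries. The 14 markers of meningeal and perivascular fibroblasts, led by Col1a2 and Col1a1, summed to 164 CPM in replicate 1 of HCl-treated CA1 against 118 to 181 CPM in the other three. In replicate 1 of paraffin DG they summed to 136 CPM against 107 to 187 CPM. In replicate 1 of PFA-fixed frozen CA3, the highest for Ttr there, they summed to 102 CPM against 18.9 to 70.5 CPM, from 27 UMIs in the library. The fibroblast sum and Ttr had the same highest replicate in 4 of 12 libraries. The 9 measured markers of ependyma, led by Rsph1 and Foxj1, summed to 24.6 CPM in replicate 1 of HCl-treated CA1, above the 7.86 to 13.8 CPM of the others. In replicate 1 of paraffin DG they summed to 88.1 CPM, below the 97.8 CPM of replicate 2. In HCl-treated DG replicate 2 had 26.4 CPM, within the library range of 19.9 to 38.1 CPM. In TE-treated DG the ependyma sum was 52.9, 17.0, 40.3 and 13.6 CPM, lowest in replicate 4, as Ttr was. Over the 24 fresh-frozen replicates, its deviations had a Pearson r of 0.20 with Ttr, 0.46 with Enpp2 and 0.55 with Clic6. The 9 markers of thalamus and habenula, led by Tcf7l2 and Zic1, summed to 937, 1043, 983 and 798 CPM in TE-treated DG and to 111 to 149 CPM in TE-treated CA1. The 5 erythrocyte genes, led by Hbb-bs and Hba-a1, summed to 120.4 CPM in replicate 1 of HCl-treated CA1 and 204 to 292 CPM in the others. In the same replicate the 4 markers of CA1 neurons, led by Pou3f1 and Mpped1, had their lowest sum of the library, 601 CPM against 762 to 1244 CPM, and the 5 markers of CA3 neurons, led by Cpne4 and Nectin3, their highest, 283 CPM against 115 to 126 CPM.

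**Figure D3:**
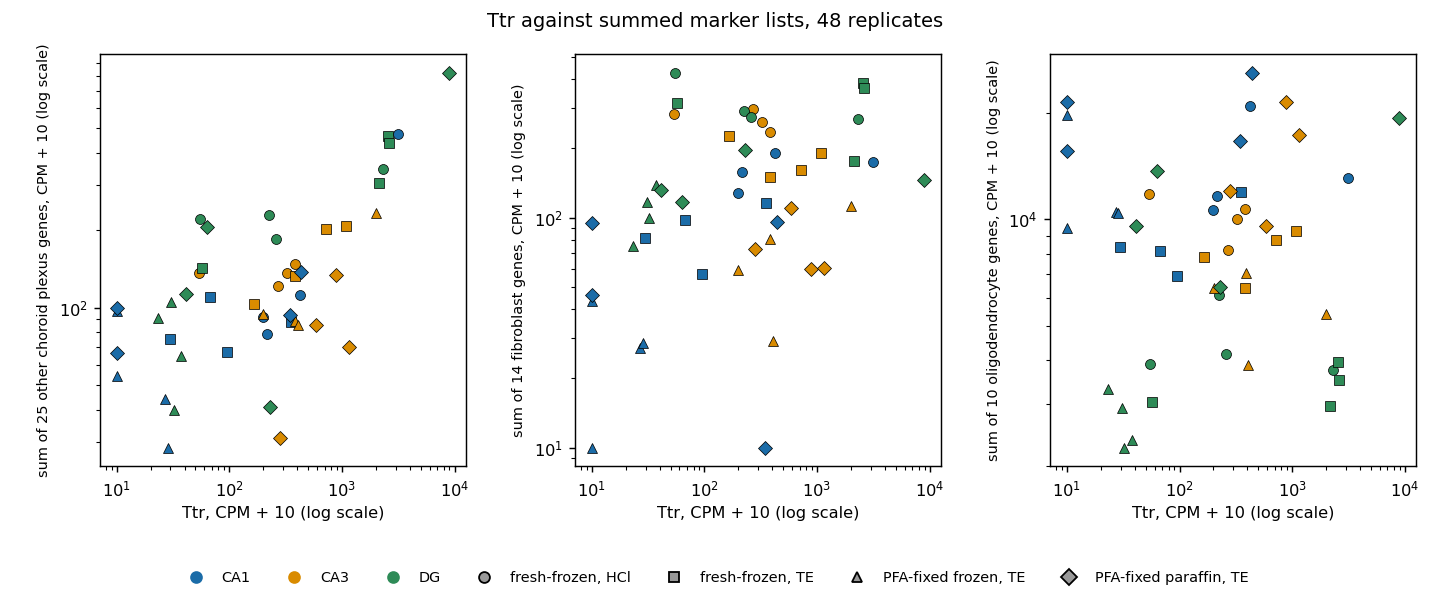
Ttr (CPM + 10, log axis) against the summed CPM + 10 (log axis) of 25 other choroid plexus genes, 14 fibroblast genes and 10 oligodendrocyte genes in 48 replicates. Colour gives the region and marker shape the condition. The replicate with the most Ttr lies at the top of the first panel (814 CPM at 8888 CPM of Ttr) and within the range of the rest in the other panels. Paraffin CA3 replicate 2 lies low in the first panel, at 60.4 CPM with 1148 CPM of Ttr. HCl-treated DG replicate 3 lies at 212 CPM with 44.4 CPM of Ttr.

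The genes most like Ttr were sought by the Pearson r of deviations from the library mean of log2(CPM + 10) over the 24 fresh-frozen replicates, among 10727 genes that averaged 5 UMIs or more there. Enpp2 was the nearest, with an r of 0.87. The 5 nearest genes outside the 7 were F5, which encodes coagulation factor V, at 0.83, Ecrg4, which encodes a secreted peptide precursor, at 0.79, the prolactin receptor gene Prlr at 0.78, Trappc12, which encodes a subunit of a vesicle-tethering complex, at 0.72, and the transcription factor gene Mitf at 0.70. Kl was at 0.66 and Igfbp2 at 0.33, while Clic6 and Folr1 had too few UMIs for this ranking. Of the 25 listed genes, 9 had enough UMIs, with a median r of 0.56 and 6 among the 100 nearest genes. The median was -0.08 over 7 fibroblast genes, 0.24 over 10 oligodendrocyte genes, 0.02 over 6 genes of thalamus and habenula and 0.01 over all genes. Replicates of a library share its preparation, and these values carry no test.

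**Figure D4:**
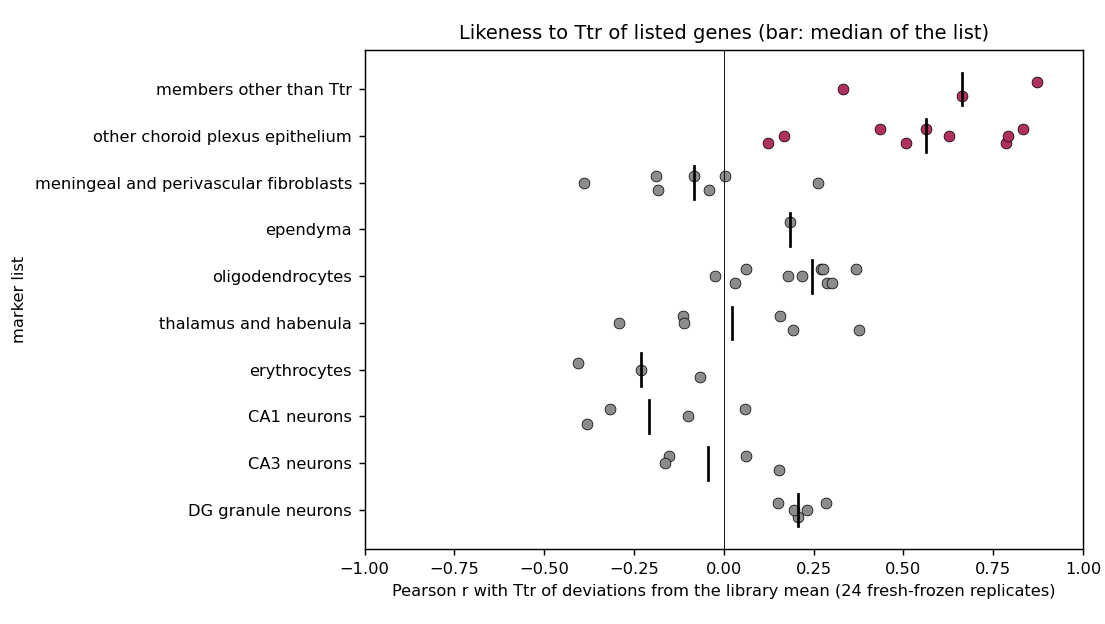
Pearson r with Ttr of deviations from the library mean over 24 fresh-frozen replicates (horizontal axis, no unit) for the genes of each list that averaged 5 UMIs or more, with the median of the list as a bar. Enpp2 (0.87), F5 (0.83), Ecrg4 (0.79) and Prlr (0.78) lie farthest to the right, and no fibroblast, thalamus or erythrocyte gene exceeds 0.38.

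Single genes of the list followed these replicates to different degrees. The list was led in mean level by Cab39l, which encodes a scaffold protein of the kinase LKB1, at 28.4 CPM over the 48 replicates. In replicates 1 to 4 of HCl-treated CA1, Ecrg4 had 35, 0, 0 and 1 UMIs, F5 had 33, 2, 4 and 0, and Tmem72, which encodes a membrane protein, had 21, 0, 0 and 0. Sostdc1, which encodes a secreted antagonist of bone morphogenetic proteins, had 51, 5, 4 and 1. In paraffin DG Ecrg4 had 17, 0, 0 and 0 UMIs, F5 had 18, 1, 0 and 0 and Kcne2, a potassium channel subunit gene, had 7, 0, 0 and 0. In TE-treated DG Ecrg4 had 19, 15, 21 and 2 UMIs and Otx2, which encodes a transcription factor of the choroid plexus, had 22, 15, 24 and 1. In HCl-treated DG, however, Otx2 had 2, 9, 23 and 1, with most in replicate 3 and not in replicate 2. Car12, which encodes a membrane-bound carbonic anhydrase, differed from these, with 28, 55, 49 and 11 UMIs in HCl-treated DG, where replicate 2 was not set apart. Slc13a4, a sulfate transporter gene, had 6, 12, 13 and 13 UMIs there and an r of 0.12 with Ttr.

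Tested between CA1 and DG in TE-treated fresh-frozen sections, 18 of the 25 genes had at least 10 UMIs over the 8 replicates, and 11 of them were lower in CA1 at an adjusted p under 0.05 and none higher. The background was 4.99% of all tested genes called lower in CA1. The 18 genes had a median log2 fold change of -2.83, against 0.01 over all genes, and all 18 were negative. Genes entered on UMIs summed over both regions. Cldn2, Slc4a5 and Calml4, with 17, 19 and 15 UMIs in DG and 0 in CA1, passed through DG alone and could only be negative. These genes are counted in the 11 called, although their direction was fixed. The median and the signs are thus a description. F5 was at 4.38 ± 3.57 CPM in CA1 and 36.5 ± 28.9 CPM in DG (log2 fold change -3.28 ± 0.55, adjusted p = 4.09e-05). Its replicates overlapped, at 1.15 to 8.09 CPM in CA1 and 0 to 63.8 CPM in DG. Car12 was at 3.54 ± 1.48 and 38.7 ± 7.89 CPM (-3.30 ± 0.40, adjusted p = 1.11e-07), and Otx2 was at 0.753 ± 1.51 and 28.5 ± 18.6 CPM (-4.96 ± 0.69, adjusted p = 1.44e-06). Ecrg4, Prlr, Slc13a4 and Msx1, a transcription factor gene, were also called, as were Tmem72 and the tight junction gene Cldn2, the bicarbonate transporter gene Slc4a5 and the calmodulin-like gene Calml4, and of these Cldn2, Slc4a5 and Calml4 had no UMI in CA1. With a floor of 3 counts set for the CA1 library, the pooled DG level was 7.61-fold higher for Cldn2, 8.51-fold for Slc4a5 and 6.72-fold for Calml4. These ratios take the DG UMIs as exact and do not cover the spread between DG replicates. The lowest DG replicate was at 0 CPM for F5, Prlr, Tmem72, Cldn2 and Calml4, and at 3.40 to 27.2 CPM for the other called genes. Between 9 and 12 genes were called when any 1 replicate was left out, and F5 alone remained called after thinning every replicate to the smallest total. In the same comparison 7 of 12 tested fibroblast genes and 4 of 8 tested genes of thalamus and habenula were also lower in CA1, and their part in the result was not tested.

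Between CA3 and DG in TE-treated fresh-frozen sections, 5 of 18 tested genes were lower in CA3 and none higher, against a background of 3.56%. They were Otx2 (log2 fold change -2.19 ± 0.48, adjusted p = 0.00277), F5 (-1.88 ± 0.45, adjusted p = 0.0059), Car12 (-1.65 ± 0.32, adjusted p = 0.000704), Ecrg4 and Slc13a4. The median was -1.39 against 0.03 over all genes, with the same filter on summed UMIs. With the replicate number as a block 9 genes were called. Leaving out 1 replicate gave 3 to 8 genes, with 3 without DG replicate 1 and 8 without CA3 replicate 1. Between CA1 and CA3 there, Calml4 and Car12 were lower in CA1 (adjusted p = 0.0266 and 0.0490) of 13 tested, against a background of 2.41%, and the block gave 4 genes. Calml4 had 0 UMIs in CA1 and 15 in CA3, so that it passed the filter through CA3 alone and could only be lower in CA1. Of the 8 fits with 1 replicate left out, Calml4 was called in 3 and Car12 in 1. Between CA3 and DG 3 of 12 tested fibroblast genes and 3 of 7 genes of thalamus and habenula were lower in CA3 as well. Between CA1 and CA3 4 of 10 and 3 of 8 were lower in CA1 and 1 of the 8 higher, with 290 of all 14544 tested genes higher in CA1. The part of these lists was not tested.

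In HCl-treated fresh-frozen sections, Car12 was at 13.9 ± 12.2 CPM in CA1, 18.9 ± 6.79 CPM in CA3 and 68.3 ± 17.8 CPM in DG, with every DG replicate above every CA1 and CA3 replicate. It was lower in CA1 than in DG (log2 fold change -2.34 ± 0.38, adjusted p = 1.14e-05) and in CA3 than in DG (-1.87 ± 0.27, adjusted p = 4.75e-05), and both calls held with any 1 replicate left out. Slc13a4 was the other gene called between CA1 and DG (adjusted p = 0.0139) among 17 tested, with 8.35% of all genes lower in CA1. Without replicate 1 of CA1 4 genes of the list were called there, and without replicate 2 of CA1 1. Otx2, Prlr and F5 were also lower in CA3 than in DG, with 15 tested and a background of 4.53%, and without replicate 2 of DG 1 gene of the list was called. Between CA1 and CA3, Prlr and F5 were higher in CA1 (adjusted p = 0.00397 and 0.0140) of 16 tested, with 4.07% of all genes higher in CA1. Without replicate 1 of CA1 neither was called, at adjusted p of 0.332 and 0.687. Of the other lists, 5 of 12 fibroblast genes and 6 of 8 genes of thalamus and habenula were lower in CA1 than in DG, and 3 of 12 and 5 of 8 were lower in CA1 than in CA3. Of all tested genes, 792 of 15637 were lower in CA1 than in CA3. Between CA3 and DG, 1 of 12 fibroblast genes and 2 of 7 genes of thalamus and habenula were lower in CA3 and 1 of the 7 higher. Among all genes tested there, 676 of 15161 were higher in CA3. The part of these lists was not tested.

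**Figure D5:**
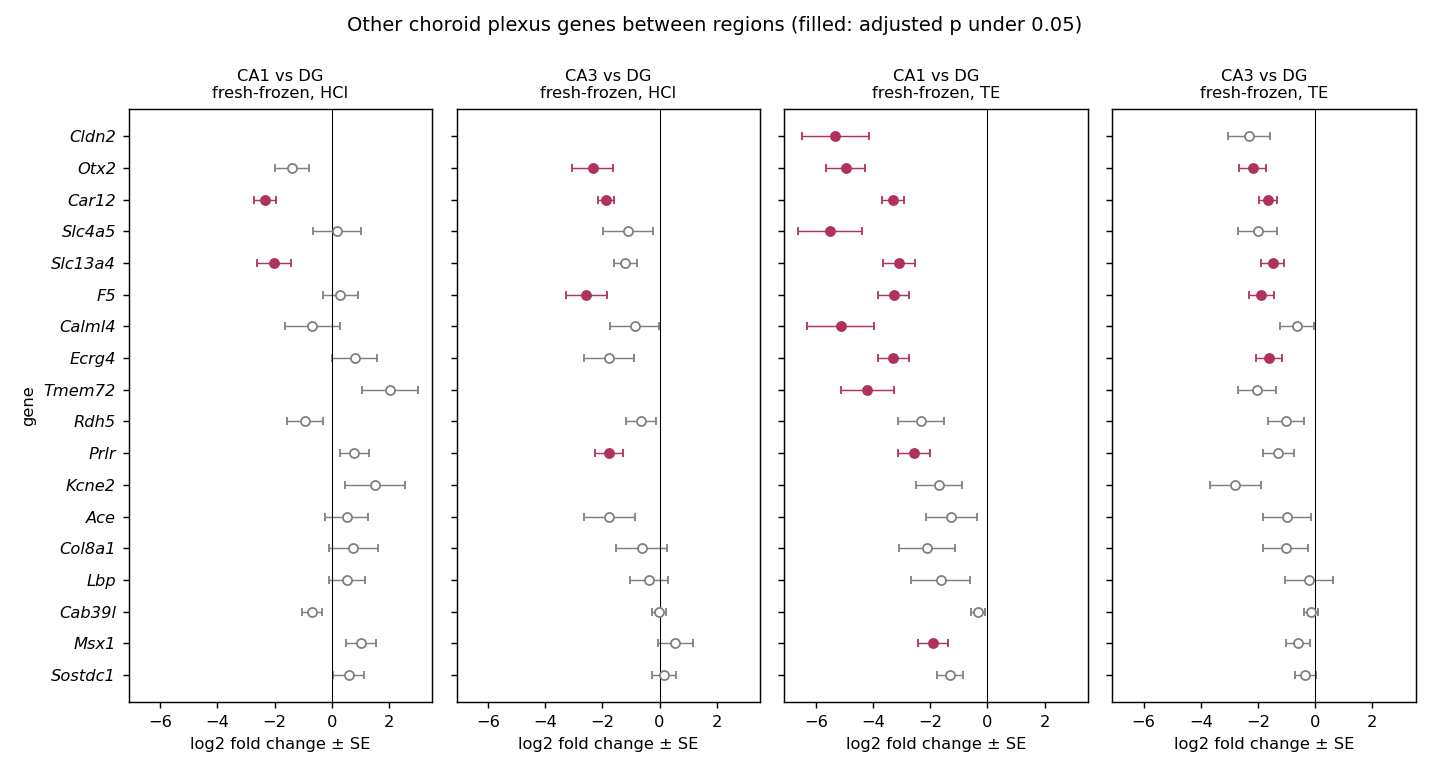
Log2 fold change with SE of other choroid plexus genes between regions in fresh-frozen sections (CA1 or CA3 against DG, 4 against 4 replicates), for genes with at least 10 UMIs. Filled points are called at an adjusted p under 0.05. After TE, all 18 genes lie below 0 in CA1 against DG and 11 are called, whereas after HCl 2 of 17 are called and 11 lie above 0. Genes with no UMI in CA1 passed the filter through DG alone.

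In PFA-fixed frozen sections 1 or 2 genes of the list had enough UMIs in a comparison of regions, and edgeR called 0 in all 3, with 8.14% of all genes called between CA1 and DG, 9.27% between CA3 and DG and 7.20% between CA1 and CA3. At an unadjusted p under 0.05, 1 gene passed between CA1 and DG and 0 in the others, and DESeq2 called 0. In paraffin sections Sostdc1 was lower in CA1 than in DG (1 and 32 UMIs, adjusted p = 0.0225) and in CA3 than in DG (1 and 32 UMIs, adjusted p = 0.0220), with 6 genes tested in each and backgrounds of 2.42% and 1.28%. With the replicate number as a block the call between CA1 and DG was lost, and DESeq2 called 0 genes of the list in both, giving no adjusted p for Sostdc1. Of the 32 UMIs in DG, 23 were in replicate 1, and without it neither was called (adjusted p of 0.553 and 0.394). Between CA1 and CA3 of paraffin sections edgeR called 0 of 1 tested gene, with 2.36% of all genes called, 0 at an unadjusted p under 0.05, and DESeq2 called 0.

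Between histological conditions, 11 of 18 tested genes of the list were lower in PFA-fixed frozen than in fresh-frozen sections with TE and none higher, against a background of 32.9% of all genes lower. Cldn2, Kcne2 and Ace had no UMI in PFA-fixed frozen sections. They passed the filter through fresh-frozen sections alone, could only be lower and are counted in the 11. The median log2 fold change, a description, was -2.02 for the list and -0.39 for all genes. F5 was at 1.32 ± 2.52 CPM in PFA-fixed frozen and 17.1 ± 21.1 CPM in fresh-frozen sections (log2 fold change -3.37 ± 0.64, adjusted p = 6.16e-06), and Sostdc1 had 9 and 211 UMIs (-2.31 ± 0.50, adjusted p = 5.99e-05). Otx2, Ecrg4, Msx1, Cldn2, Slc13a4, Kcne2, Calml4, Prlr and Ace, which encodes angiotensin-converting enzyme, were also lower. DESeq2 called 5 of them and gave no adjusted p for Kcne2, Cldn2 and Ace, and F5 alone was called after thinning. In this comparison 8 of 13 tested fibroblast genes were lower too, and the erythrocyte sum fell from 263 to 699.6 CPM per replicate to 0 to 111 CPM, and their part in the result was not tested.

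Paraffin sections exceeded PFA-fixed frozen sections for 5 of 12 tested genes, Otx2, Sostdc1, Lbp, which encodes lipopolysaccharide-binding protein, F5 and Ecrg4, with a background of 13.7% of all genes higher. The median was 1.07 for the list and 0.05 for all genes. Sostdc1 had 34 UMIs in paraffin and 9 in PFA-fixed frozen sections (log2 fold change 1.95 ± 0.56, adjusted p = 0.00392) and F5 had 20 and 3 (2.48 ± 0.70, adjusted p = 0.00309). Replicate 1 of DG held 23 of the 34 and 18 of the 20, and without it 1 gene was called. DESeq2 called none of them and gave no adjusted p for F5 and Ecrg4. In the same comparison all 10 oligodendrocyte markers were higher in paraffin sections, and their part in the result was not tested. Between HCl and TE in fresh-frozen sections, Car12 was higher with HCl (log2 fold change 0.77 ± 0.23, adjusted p = 0.00684) and Cldn2 lower (-1.92 ± 0.63, adjusted p = 0.0176) among 21 tested genes, with 16.2% of all genes higher and 14.3% lower, while 6 genes were called without replicate 1 of HCl-treated CA1 and 4 without replicate 3 of TE-treated DG. Each condition and region was 1 library, so that library and condition cannot be told apart.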

How the data were processed

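UMIs were measured in 48 barcoded replicates in 12 libraries, 4 for each of 3 regions and 4 histological conditions. The deposited values were UMI counts per gene, which the authors made with UMI-tools 1.0.0, HISAT2 2.1.0 on GRCm38 and featureCounts 1.6.4, and they were not normalized. UMIs of 6 bases have 4096 possible sequences, and the highest Ttr count was 2284, 55.8% of these. Repeated UMIs can therefore compress high counts. Counts of mt-Rnr2 passed 4096 in 18 replicates, so this number is no strict ceiling per gene and the correction for repeated UMIs is approximate. Depth ran from 35932 to 1111804 UMIs, and intervals cover counting error. Positions came from the GENCODE annotation of GRCm38.

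CPM were computed over all 32546 genes. Regions within a condition, and conditions with region as a covariate, were compared with edgeR 4.0.16 (quasi-likelihood test, TMM, genes with at least 10 UMIs in the replicates compared, Benjamini-Hochberg over all genes tested, called at an adjusted p under 0.05). The 7 genes were chosen by measured values, so their fold changes carry no test. Members and gene lists were chosen with earlier results of these data known. A gene can pass the filter through its high group alone, so that medians and signs over a list are descriptions. The genes named were the members, genes of the other choroid plexus list that were called or among its 5 highest, the 2 highest of each other list, and the 5 most like Ttr. A gene that this rule names is not reported here. The labels call the replicates biological without naming animals. Same-numbered replicates deviated together (every r over 0.1) in 4 of 12 comparisons of regions, the 3 after TE in fresh-frozen sections and CA3 with DG after HCl, and in no other. DESeq2 1.42.0, its size factors, no filter, the replicate number as a block, thinning to 35932 UMIs, correction for repeated UMIs and leaving out each replicate were alternatives. The scripts were tested on simulated data. Igf2 was not analysed here.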

Additional observations from a re-analysis of the deposited data

Results flagged for a closer look

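In 24 of 84 groups of 4 replicates (each measured gene and their sum in each library), the highest replicate stood farther from the others than Dixon's 95% critical value for the gap as a share of the range. In 10 of the 24, the other three replicates were at 0, which meets the criterion with any UMI, so that the chance rate of about 1 in 20 does not apply to them. The genes were chosen by measured values of these replicates, and the genes and their sum share replicates. Ttr was set apart in replicate 1 of HCl-treated CA1 (3125 CPM), replicate 2 of HCl-treated DG (2300.1 CPM), replicate 1 of PFA-fixed frozen CA3 (1976 CPM) and replicate 1 of paraffin DG (8888 CPM). The sum of the genes was set apart in the same 4 replicates, at 5078, 3364, 2749.8 and 13375.5 CPM, and in replicate 4 of TE-treated CA1, at 1222 CPM.

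Enpp2 was set apart in replicate 2 of HCl-treated DG (1014 CPM), replicate 4 of TE-treated CA1 (861 CPM) and replicate 1 of paraffin DG (4339 CPM). Clic6 was set apart in replicate 1 of HCl-treated CA1 (30.1 CPM) and replicate 1 of paraffin DG (74.6 CPM), and through 1 UMI in replicate 1 of PFA-fixed frozen CA3 (10.2 CPM) and replicate 2 of paraffin CA3 (10.1 CPM).

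Folr1 was set apart in replicate 2 of HCl-treated DG (7.75 CPM, 5 UMIs), replicate 1 of HCl-treated CA3 (2.14 CPM, 2 UMIs), and through 1 UMI in replicate 2 of TE-treated DG (1.70 CPM) and replicate 3 of PFA-fixed frozen CA3 (7.83 CPM). Kl was set apart in replicate 2 of TE-treated CA3 (11.7 CPM) and through 1 UMI in replicate 1 of paraffin CA1 (21.3 CPM) and of paraffin CA3 (8.27 CPM). Igfbp2 was set apart through 1 UMI in replicate 3 of paraffin CA1 (14.1 CPM). Of the 24, 7 rested on 1 UMI.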

How the results depend on the processing

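Counts of other choroid plexus genes called, summed over the 4 conditions, were 14 for CA1 against DG, 10 for CA3 against DG and 4 for CA1 against CA3. A gene counts once per condition, and the backgrounds of each comparison are given above. The counts here and between conditions include genes with no UMI in the lower group, named above, whose direction was fixed. The 4 join 2 genes higher in CA1 after HCl and 2 lower in CA1 after TE. The summed counts were 9, 6 and 2 with DESeq2 and 1, 1 and 0 after thinning to the smallest total, which leaves fewer UMIs per gene. The replicate block gave 16 for CA3 against DG and 7 for CA1 against CA3. Leaving out 1 replicate gave 12 to 16, 7 to 13 and 2 to 7. Between conditions the counts were 2 for HCl against TE, 11 for PFA-fixed frozen against fresh-frozen sections and 5 for paraffin against PFA-fixed frozen sections. DESeq2 gave 1, 5 and 0, thinning 0, 1 and 0, and the block 2 for the last. Leaving out 1 replicate gave 2 to 6, 10 to 14 and 1 to 5. In the other comparisons the block kept the counts within 1.5 times. The cause of the remaining differences was not tested.

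With 1 replicate left out, the log2 fold change of Ttr between CA1 and DG ranged from -1.54 to 2.69 after HCl, -5.12 to -3.61 after TE, -2.32 to -0.62 in PFA-fixed frozen and -4.97 to 1.14 in paraffin sections. Between CA3 and DG it ranged from -1.89 to 0.74, -2.09 to -1.31, 3.93 to 5.58 and -2.09 to 3.32. Between CA1 and CA3 it ranged from -0.064 to 2.35, -3.48 to -1.93, -7.39 to -5.23 and -3.25 to -1.64. The sign turned without replicate 1 of HCl-treated CA1 (CA1 with DG and with CA3), without replicate 2 of HCl-treated DG (CA3 with DG) and without replicate 1 of paraffin DG (CA1 and CA3 with DG). Between conditions the ranges were -0.86 to 0.0089, -3.36 to -1.78 and 0.74 to 3.64, and the first turned sign without replicate 3 of HCl-treated DG or replicate 2 of TE-treated CA3.

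Without Ttr the summed level moved by more than the SD in HCl-treated CA3 (612 CPM) and paraffin CA3 (777 CPM). Correcting for repeated UMIs moved the share of Ttr to 55.1% in HCl-treated CA1, 62.4% in HCl-treated DG, 57.7% in TE-treated DG and 62.7% in paraffin DG, that of Enpp2 to 42.4%, 35.9%, 41.2% and 36.2%, and that of Kl in HCl-treated CA1 to 1.55%. The other shares of single libraries stayed within their counting interval. Over all libraries the correction moved Ttr from 47.0% to 49.6%, Enpp2 from 51.0% to 48.7%, which turns their order, and Kl from 0.938% to 0.815%. In PFA-fixed sections depth left 1 to 6 genes of the list for a test between regions.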
